A study of Mus musculus with 2 samples.

Results

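The genes described here encode the nuclear part of the mitochondrial respiratory chain and the ATP synthase in fetal mouse liver. They were taken by symbol: every protein-coding gene whose symbol starts with Nduf, Uqcr, Atp5, or Cox followed by a number, together with Sdha, Sdhb, Sdhc, Sdhd, Cyc1 and Cycs. The rule used no measured value and found 104 genes among 43346 annotated genes, of which 21474 were protein-coding and had a symbol. Another 12 genes with such symbols were annotated as processed pseudogenes and were not counted. By textbook role the 104 genes fall into 76 structural subunits, 8 tissue-restricted forms of complex IV, 17 assembly factors and 3 further genes (Cycs, Cox7a2l and Atp5s).

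Total RNA longer than 200 nt was measured by RNA-seq in liver of B6NCrl mouse embryos at 13.5 days. Males and females were pooled, no treatment or genetic change is named, and 10 ng of RNA with added spike-ins went into each library. The series holds 1 group of 2 biological replicates with the same donor entry, so each SD (n = 2) describes the spread of these samples alone, and no condition could be tested. Replicate 1 held 39182457 expected counts on annotated genes and replicate 2 held 37432977, of which the 104 genes took 719241 and 662281. Levels are given as TPM, a transcript abundance per length scaled to a fixed total per library. All 9 hepatoblast genes and all 9 erythroid genes examined reached 1 TPM in both libraries, as did 52.1% of all protein-coding genes with a symbol. Their median levels were 1660 and 892 TPM, against 2.52 TPM for 10 cardiac and 3.06 TPM for 9 skeletal muscle genes. These medians bear out the liver label, and the levels are those of a mixture of hepatic and blood-forming cells. In such bulk tissue, fewer cells of a type and less RNA per cell cannot be told apart.

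The respiratory chain passes electrons from NADH through complex I, or from succinate through complex II, to ubiquinone, then through complex III and the small carrier cytochrome c to complex IV, where oxygen is reduced. Complexes I, III and IV pump protons across the inner mitochondrial membrane, and complex V, the ATP synthase, lets them flow back to make ATP. Complex II is built wholly from nuclear genes, while the other complexes also hold subunits made from the mitochondrial genome, and several complex IV subunits exist as a general form and a form kept for muscle, lung or testis. The fetal liver at this stage is the main site of red cell formation, and maturing red cells still carry mitochondria, which they later discard.

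Nearly all of these genes were transcribed at a measurable level. At least 1 TPM in both libraries was reached by 100 of the 104, against 52.1% of all protein-coding genes with a symbol, and at least 100 TPM by 72 of the 104, against 4.92%. Together they held 2.78% of annotated TPM in replicate 1 and 2.81% in replicate 2 (2.80% ± 0.0217, SD, n = 2). Their share of expected counts, which grow with transcript length, was lower, at 1.80% ± 0.0469. With globin genes left out of the total, the share of TPM was 4.17%. The highest of all was Atp5b and the lowest were Cox7b2 and Cox8c, which had no counts. In what follows a pair of values gives replicate 1 and then replicate 2, and ± is the SD of both.

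The complexes stood at different levels. Over structural subunits, the median of complex IV was highest at 536 ± 29.3 TPM (11 subunits), followed by complex V at 459.5 ± 11.1 TPM (16), complex III at 330.2 ± 0.297 TPM (9), complex II at 188 ± 6.99 TPM (4) and complex I at 184 ± 4.01 TPM (36). Within a library the log2 ratio of the median of complex IV over that of complex I was 1.51 and 1.57, a 2.91-fold lead, and that of complex III over complex I was 0.86 and 0.82. Complex II and complex I were close, with log2 ratios of 0.01 and 0.04 and a reversed sign (-0.047) when the levels of near-identical gene copies were added. Complex V lay below complex IV in both libraries, with log2 ratios of -0.14 and -0.30. The plot of subunit levels shows that these medians cover wide ranges, and that ranges of different complexes overlap. Across the 76 structural subunits the mean level had a Spearman rho of -0.42 with transcript length. Median lengths ran from 544 nt in complex III and 546 nt in complex IV to 1214 nt in complex II. The part of length in the order of the complexes was not tested.

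**Figure D1:**
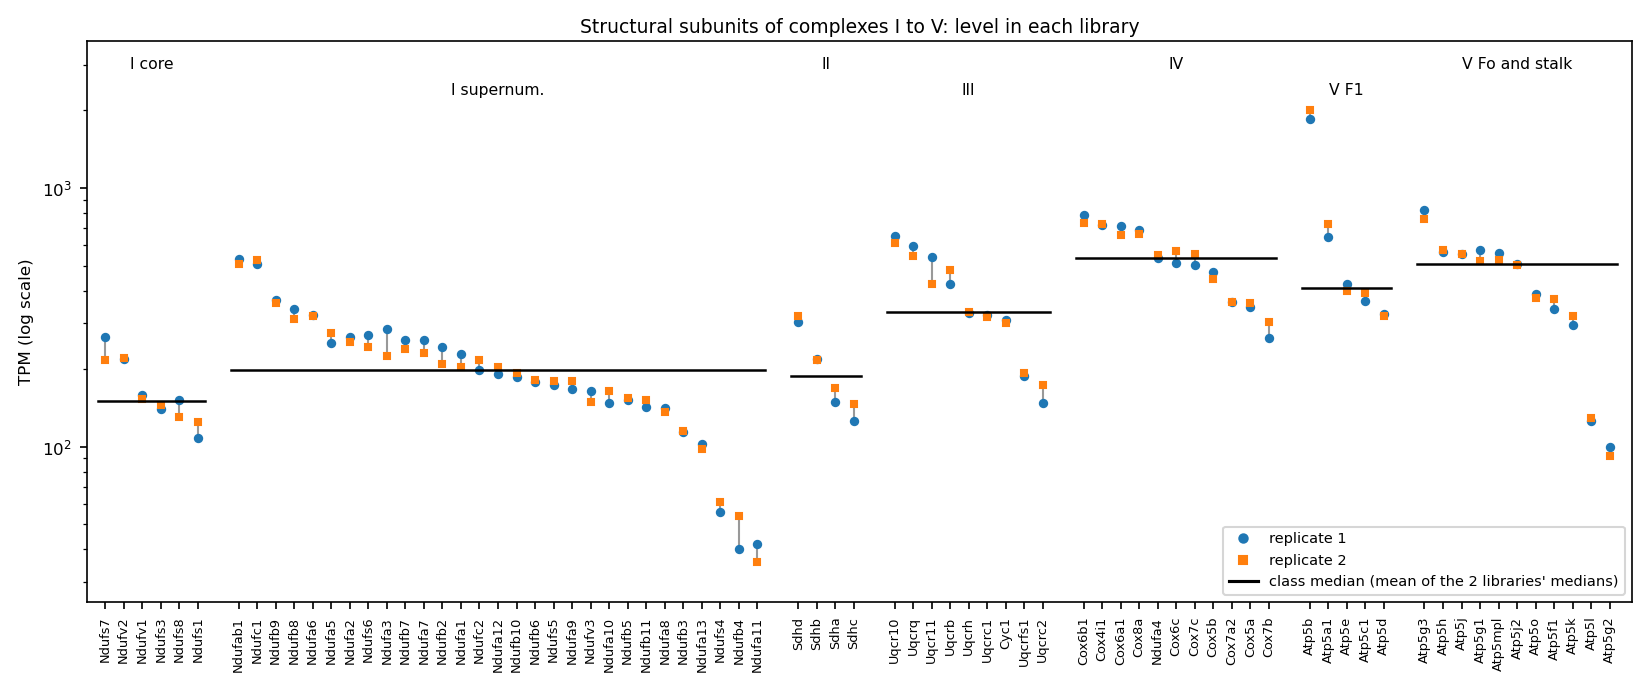
TPM on a log scale of 75 of the 76 structural subunits in replicate 1 (circles) and replicate 2 (squares), grouped by complex and ordered by mean level, with the median of each whole class as a black line. The medians of complexes IV and V lie above those of complexes I and II, and Atp5b stands alone near 1929 TPM.

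Complex I is the largest complex, and its nuclear subunits comprise a catalytic core that carries the flavin and the iron-sulfur clusters and a surrounding set of supernumerary subunits. The 7 core genes lay close together, between 116 ± 11.6 TPM for Ndufs1 and 240.5 ± 34.4 TPM for Ndufs7, with a median of 151 ± 0.417 TPM. Ndufs7, which holds the last iron-sulfur cluster before ubiquinone, was at 265 and 216 TPM. Ndufv2, an iron-sulfur protein beside the site of NADH oxidation, was at 217 and 219.5 TPM, and its flavin-binding partner Ndufv1 at 158 and 153 TPM. The lower end was formed by the iron-sulfur protein Ndufs8 at 151 and 131 TPM and by Ndufs1, the largest iron-sulfur subunit, at 108 and 124 TPM. The values of Ndufs7 and Ndufv2 overlapped between the libraries, and those of Ndufs8 and Ndufs1 did not.

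The 29 supernumerary genes spanned a much wider range, 14.0 ± 1.02 times from lowest to highest within a library, against 2.11 ± 0.487 times in the core. Their median was 197 ± 8.90 TPM, which exceeded that of the core by 0.39 ± 0.07 on the log2 scale. The highest was Ndufab1 (chromosome 7, 122085403 to 122101886 of GRCm38), the mitochondrial acyl carrier protein that also serves fatty acid synthesis, at 534 and 508 TPM. Ndufc1, a small membrane subunit, followed at 507 and 526 TPM, so the order of these 2 genes differed between the libraries. Ndufb9 was at 370.01 and 358 TPM and Ndufb8, another membrane arm subunit, at 339.8 and 313 TPM. At the other end stood Ndufb4 at 40.2 and 54.1 TPM and Ndufa11 (chromosome 17, 56717767 to 56722141) at 41.8 and 35.8 TPM, both of them subunits of the membrane arm. For Ndufb4 most of the signal was assigned to a copy elsewhere, as given further on, whereas Ndufa11 had no such copy and a single deposited transcript of 2661 nt. In GENCODE release M21 the exons of Ndufa11 cover only 1092 nt, and its TPM was computed at the longer length. The low end of the range thus rests on Ndufb4 in replicate 1 and on Ndufa11 in replicate 2, both with these limits. Of the 35 pairs of neighbours in the order of complex I levels, 26 overlapped between the libraries, so most of this order is not resolved beyond the replicate spread.

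The 8 Ndufaf genes, which help assemble complex I and are not part of it, stood lower, with a median of 34.7 ± 1.70 TPM and means from 10.7 to 48.7 TPM. The structural subunits of complex I exceeded them 5.31-fold in median. Ndufaf4 was at 43.3 and 54.0 TPM, Ndufaf8 at 46.3 and 41.4, Ndufaf2 at 39.9 and 47.7 and Ndufaf1 at 40.03 and 46.5 TPM. These 4 genes overlapped in their values. The lowest were Ndufaf7, a methyltransferase, at 17.5 and 19.2 TPM, and Ndufaf5, which hydroxylates Ndufs7, at 10.2 and 11.1 TPM.

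Complex II, succinate dehydrogenase, links the chain to the tricarboxylic acid cycle. All 4 genes exceeded 100 TPM in both libraries and no neighbours in their order overlapped. The membrane anchor Sdhd was highest at 303 and 319 TPM, and the iron-sulfur subunit Sdhb was at 218 and 217 TPM. Sdha, the flavoprotein that oxidises succinate, was at 148 and 169 TPM. The second anchor, Sdhc, was lowest at 125 and 146 TPM. The products of Sdhc and Sdhd sit side by side in the membrane, and their transcripts were the lowest and the highest of the complex, with means of 136 ± 14.7 and 311 ± 11.5 TPM.

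Complex III contains cytochrome b, which is made in the mitochondrion, nuclear cytochrome c1 and an iron-sulfur protein, large core proteins and several small subunits. The small subunits led. Uqcr10 was at 650.2 and 615 TPM, Uqcrq at 599.6 and 546 TPM, Uqcr11 at 542 and 425 TPM and Uqcrb at 427 and 482 TPM. The order of Uqcr11 and Uqcrb was not resolved, since their values overlapped. The hinge protein Uqcrh, which assists docking of cytochrome c, was at 330.03 and 330.45 TPM. The catalytic subunits stood lower, with Cyc1 (cytochrome c1) at 309 and 301 TPM and the Rieske iron-sulfur protein Uqcrfs1 at 188 and 193 TPM. Core protein Uqcrc2 was lowest at 147 and 172 TPM, below its partner Uqcrc1 at 322 and 317 TPM.

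Cytochrome c itself (Cycs, chromosome 6, 50562563 to 50566538) appeared low for a protein that serves every chain, at 53.5 and 60.04 TPM (56.8 ± 4.65). This value rests on how reads were divided. Transcripts of 4 loci elsewhere matched Cycs at 95% identity or more over at least 150 nt, and 90.8% ± 0.709 of the TPM of Cycs and these loci together was assigned to them. Gm10108, a processed pseudogene on chromosome 5 (13121448 to 13121766), held 368 and 356 TPM, and Gm10053, a locus on chromosome 19 (24875686 to 24876631) that GENCODE lists as protein-coding, held 193 and 203 TPM. With the copies added, the level was 617 ± 2.92 TPM. This level and the share of 90.8% depend on length, which was 3006 nt for Cycs, against a match of 319 nt for Gm10108. By expected counts Cycs had 5875 and 5947, Gm10053 6214 and 5858, and Gm10108 3053 and 2655. The 617 TPM is thus not the level Cycs would have if it held all these reads. Of the 315 coding bases of Cycs, Gm10053 shared all and Gm10108 all but 2. The first 60 coding bases, which hold both differences (in capitals, named from position 1 at the start codon as G4A and G44A, Cycs first), are shown to let the loci be compared:
Cycs: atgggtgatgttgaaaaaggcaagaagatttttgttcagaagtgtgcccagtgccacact
Gm10108: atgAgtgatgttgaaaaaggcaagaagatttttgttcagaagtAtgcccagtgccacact
Gm10053: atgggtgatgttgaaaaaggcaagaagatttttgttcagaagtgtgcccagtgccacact

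The posterior SD deposited for the Cycs counts was only 0.882% and 0.858% of the count, so the authors' model gave its own estimate a small uncertainty. Which locus the reads came from was not tested. The testis form Cyct had 2 and 0 counts, against 5875 and 5947 for Cycs.

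Complex IV, cytochrome c oxidase, had subunits with an SD of log2(TPM + 0.1) of 0.48 ± 0.04 against 0.81 ± 0.03 in complex I, 0.53 ± 0.05 in complex II, 0.68 ± 0.07 in complex III and 0.995 ± 0.0134 in complex V. Complex IV was below complex II in each library, at 0.51 and 0.44 against 0.57 and 0.49. This order turned with near-identical copies added (0.59 against 0.53) and with coding transcripts only, where the SD was 0.78 in complex IV, 0.56 in complex II and 0.67 in complex III. All 11 general forms exceeded 100 TPM. Cox6b1, on the side that faces cytochrome c, was highest at 787 and 733 TPM, followed by Cox4i1, the subunit through which ATP acts on the enzyme, at 722 and 727 TPM. Cox6a1 was at 715 and 658 TPM and Cox8a, the smallest subunit, at 688 and 663 TPM, and the values of these 2 genes overlapped. The lowest were Cox5a at 345 and 360.2 TPM and Cox7b at 262 and 302 TPM. Ndufa4, named as a complex I gene but now placed in complex IV, was at 538 and 554 TPM, amid the complex IV subunits. It was above every subunit of complex I in both libraries, except that Ndufab1 with its copies added reached 567 ± 0.0354 TPM.

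The tissue-restricted forms of complex IV were far lower, except for Cox6b2. In 8 of the 9 pairs of a general and a restricted form shown in the plot of paired isoforms, cytochrome c and Cyct included, the general form led by more than 10-fold in both libraries. Cox4i2, the form of lung and of cells at low oxygen, was at 1.05 and 0.98 TPM (25 and 21 counts), 714-fold below Cox4i1. Cox6a2, the heart and skeletal muscle form, was at 2.17 and 2.52 TPM (46 and 48 counts), 293-fold below Cox6a1. Cox7a1, also a muscle form, was at 4.19 and 4.77 TPM (42 and 43 counts), 80.8-fold below Cox7a2, which was at 361.13 and 361.03 TPM. The muscle form Cox8b had 3 and 10 counts, at 0.30 and 1.12 TPM. The ratio of replicate 2 over replicate 1 for Cox8b was 3.33, with an exact 95% binomial interval from 0.858 to 18.8 that includes no change.

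The testis forms Cox7b2 and Cox8c had 0 counts in both libraries. A count of 0 allows up to 3 counts, which places Cox7b at least 1465-fold above Cox7b2 in replicate 1 and at least 1519-fold in replicate 2. Cox8a was at least 3274-fold above Cox8c in replicate 1 and at least 2834-fold in replicate 2. These floors and intervals cover counting error only, since the reads carry no molecular identifiers in the tables. Ndufa4l2, a paralog of Ndufa4 that low oxygen induces, had 80 and 48 counts (2.45 and 1.64 TPM). The general form was 219.5-fold higher in replicate 1 and 338-fold in replicate 2.

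Genes of other tissues were present beside the muscle forms. Of 10 cardiac muscle genes, 5 reached 1 TPM in both libraries, with a summed level of 42 TPM in replicate 1 and 102 TPM in replicate 2, and of 9 skeletal muscle genes, 7 did, with 73.5 and 57.5 TPM. None of the 10 or the 9 was at 0 in both. Cox6a2 and Cox7a1 had ratios of replicate 2 over replicate 1 of 1.04 (0.681 to 1.60) and 1.02 (0.653 to 1.60), intervals that include no change. The part of muscle tissue in these values was not tested.

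Cox6b2, known as the testis form of Cox6b, did not follow the other restricted forms. It was at 94.6 and 88.1 TPM, from 1435 and 1205 counts, and made up 10.7% of the sum of Cox6b1 and Cox6b2 in each library, so that Cox6b1 was 8.32-fold higher. The gene lies on chromosome 7 (4751792 to 4753094, minus strand of GRCm38), apart from Cox6b1 on the same chromosome (30616861 to 30626151). None of its exons overlapped another gene of the tables, no near-identical copy was found, and its posterior SD was 0. Of its 9 deposited transcripts the leading one, Cox6b2-201, held 29.0% ± 2.35, and 83.4% ± 0.531 of the gene's TPM lay in protein-coding transcripts. Of 6 testis and germ cell genes, 0 reached 1 TPM, their summed level was 0.74 and 0.64 TPM, and Tex101 was at 0.

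**Figure D2:**
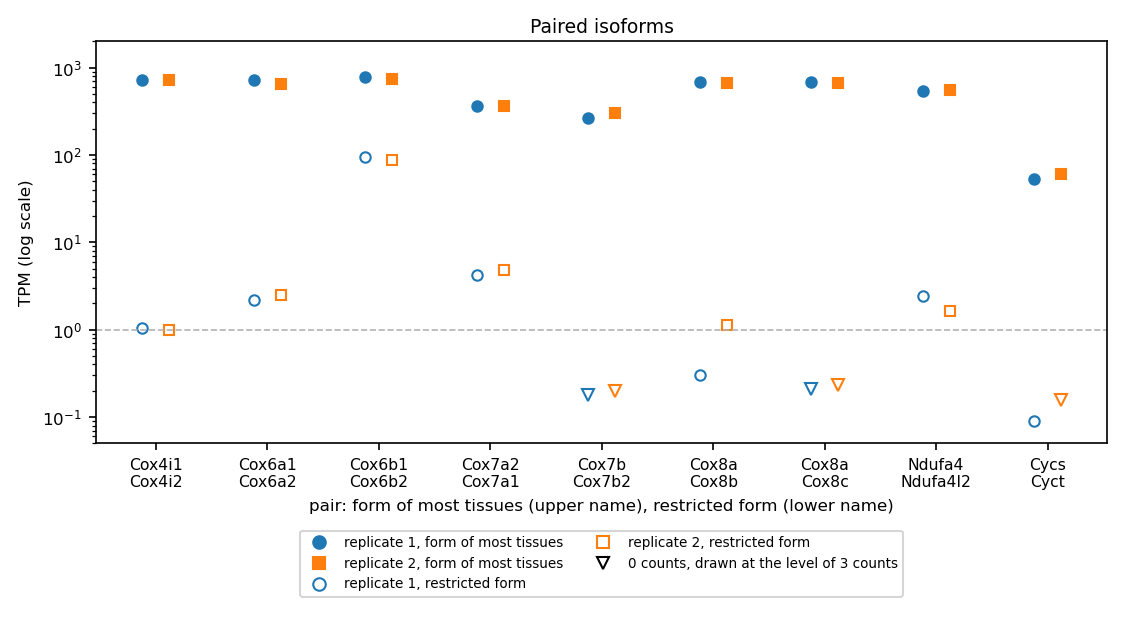
TPM on a log scale of 9 pairs of a general form (filled) and a tissue-restricted form (open) in replicate 1 (circles) and replicate 2 (squares), with triangles at the level of 3 counts where a library had none and a dashed line at 1 TPM. Cox6b2 is the only open symbol above 10 TPM, at 94.6 and 88.1 TPM.

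The 9 complex IV assembly factors spanned a wide range, 49.9 ± 1.93 times from lowest to highest, and no neighbours in the order overlapped. Cox17, the copper chaperone of the intermembrane space, stood apart at 298 and 313 TPM. Cox20, a chaperone of the subunit made from mt-Co2, followed at 87.0 and 107 TPM, Cox16 at 81.8 and 85.3 TPM and Cox14 at 72.4 and 64.1 TPM. The enzymes that make heme a were lowest, with Cox10, the heme o synthase, at 11.3 and 12.5 TPM and Cox15, the heme a synthase, at 6.13 and 6.10 TPM. Of the exonic bases of Cox20, 91.1% overlapped Hnrnpu on the opposite strand, and of those of Cox16, 56.8% overlapped Gm20498 on the same strand. Whether strand was used in counting is a point not given in the sources used here, and without it reads of opposite genes cannot be told apart. Cox7a2l, a relative of Cox7a2 known as a supercomplex factor, was at 69.5 and 78.1 TPM, 4.90-fold below Cox7a2. Whether its product joins complexes III and IV in this strain was not measured.

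Over all complexes, structural subunits had a median of 283 ± 7.47 TPM and assembly factors within the rule one of 29.3 ± 3.74 TPM, a 9.70-fold difference. Of the assembly factors outside the rule, taken from a list, all 8 measured for complex I, 4 for complex II, 6 for complex III, 15 for complex IV and 4 for complex V reached 1 TPM. Their medians were 16.2 ± 0.820, 11.04 ± 0.258, 23.2 ± 0.304, 28.5 ± 1.30 and 43.3 ± 0.527 TPM in that order. Coa3 at 113 ± 0.325 TPM and Uqcc2 at 191 ± 2.79 TPM were the highest of their lists, and Sdhaf3 at 2.56 ± 0.148 TPM was the lowest for complex II. For complex IV the lowest were Pet117 at 2.72 and 4.17 TPM and Sco2 at 3.92 and 3.5 TPM, whose order differed between the libraries.

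Complex V consists of the F1 head, where ATP is made, and the Fo part with the rotating ring of c subunits and the stalks. Atp5b (chromosome 10, 128083273 to 128090391), the catalytic beta subunit of the head, was the highest of all 104 genes at 1859 and 1999 TPM (92407 and 90854 counts). Atp5a1, the alpha subunit that alternates with beta in the head, was at 649 and 727 TPM, so that the beta transcript was 2.86-fold and 2.75-fold above alpha. The lead was smaller in transcripts annotated as coding, at 1200 and 1323 TPM for beta against 546 and 627 TPM for alpha. Both are present in several copies per enzyme, whereas epsilon (Atp5e) at 424 and 398 TPM, gamma (Atp5c1) at 367 and 394 TPM and delta (Atp5d) at 326 and 321 TPM are single. The median of the 5 head genes was 411 ± 18.2 TPM, below the 508 ± 3.98 TPM of the 11 Fo and stalk genes. With only transcripts annotated as coding the direction turned, from a log2 ratio of -0.30 ± 0.05 to 0.23.

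In the Fo part Atp5g3, a gene for the c subunit, was highest at 826 and 759 TPM. The stalk subunits Atp5h and Atp5j were at 565 and 578 TPM and at 555 and 558 TPM, and Atp5g1, the second c subunit gene, at 574 and 523 TPM. The lowest were Atp5l (subunit g) at 126 and 128 TPM and Atp5g2, the third c subunit gene, at 99.8 and 92.1 TPM. The 3 c subunit genes encode the same mature protein behind different import signals. Atp5g3 supplied 55.2% ± 0.115 of their TPM, Atp5g1 38.2% ± 0.156 and Atp5g2 6.68% ± 0.0404, in the same order in both libraries. When TPM of near-identical copies was added, the shares were 44.4% ± 0.181, 40.4% ± 0.603 and 15.2% ± 0.422. Atp5s, a coupling factor with a synthase symbol that is not one of the structural subunits, was at 10.5 and 10.3 TPM.

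Copies in the genome bear on 7 of the 104 genes by more than 5% of the joint TPM. Beside Cycs, the share assigned to copies was 84.5% ± 3.01 for Ndufb4, 82.8% ± 0.381 for Atp5l, 64.5% ± 0.702 for Atp5g2, 53.8% ± 0.0690 for Cox7c, 24.0% ± 0.973 for Atp5g1 and 8.12% ± 3.27 for Ndufab1. The copy of Ndufb4, the processed pseudogene Ndufb4c (chromosome 15, 73809507 to 73809896), held 260 and 252 TPM, against 40.2 and 54.1 for the gene. For Atp5l it was Gm10221 (chromosome 5, 24581554 to 24581862) with 619 and 607 TPM, and for Cox7c Gm12338 (chromosome 11, 75599763 to 75599954) with 576 and 632 TPM beside 502 and 557 TPM for the gene. By expected counts Cox7c led, with 8191 and 8121 against 2029 and 1998 for Gm12338. TPM is per length, and Gm12338 matched over 192 nt, against a length of 529 nt for Cox7c. These copies shared every coding base with their gene, 387 in Ndufb4, 309 in Atp5l and 189 in Cox7c, so the first 60 coding bases, shown because reads within them cannot be placed, are common to gene and copy:
Ndufb4 and Ndufb4c: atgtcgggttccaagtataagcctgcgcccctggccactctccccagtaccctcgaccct
Atp5l and Gm10221: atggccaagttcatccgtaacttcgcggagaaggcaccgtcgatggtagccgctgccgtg
Cox7c and Gm12338: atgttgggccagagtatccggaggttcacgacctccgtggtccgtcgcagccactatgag

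With the copies added, Ndufb4 stood at 303 TPM and Atp5l at 741.6 TPM. TPM is per length, and Ndufb4c matched over 390 nt, against a length of 647 nt for Ndufb4. These sums are therefore not the levels the genes would have if they held all the reads. By expected counts Ndufb4 had 899 and 929, and Ndufb4c 2864 and 2494. With the sums, the SD of log2 levels was 0.75 in complex I and 0.70 in complex V, in place of 0.81 and 0.995. By these sums neither gene lay near the foot of its complex. Over all 104 genes the posterior SD reached at most 4.66% of the count.

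**Figure D3:**
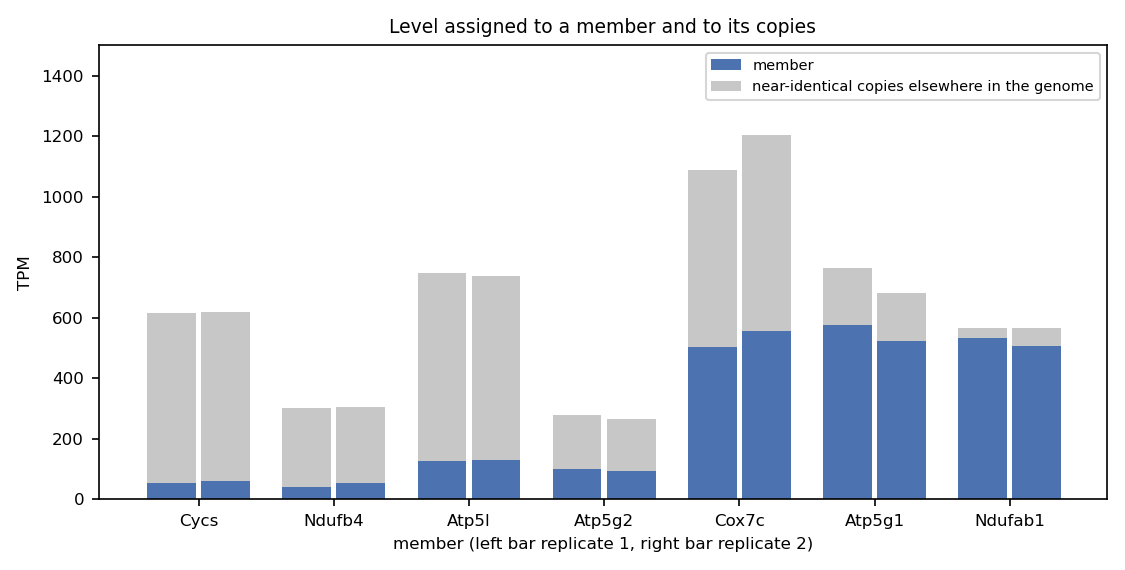
TPM assigned to 7 genes (blue) and to their near-identical copies elsewhere in the genome (grey), stacked from 0, with replicate 1 as the left and replicate 2 as the right bar. For Cycs, Ndufb4, Atp5l, Atp5g2 and Cox7c the grey part exceeds the blue part in both libraries. The bars depend on the length of each locus, and by expected counts Cox7c exceeded its copies.

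The annotated transcript that led a gene was the same in both libraries for all 70 genes that had at least 10 TPM and more than 1 transcript, and it held over 80% of TPM in 41 of them. Ndufv3-202 (485 nt) held 92.8% ± 0.982, with the longer Ndufv3-201 (1537 nt) at 6.63% ± 0.966. Atp5c1-203 held 95.8% ± 0.567 and Atp5c1-201 3.94% ± 0.542. Cox7a2l-201 held 98.3% ± 1.22, and for the c subunit genes Atp5g1-202 held 98.6% ± 0.317, Atp5g2-202 98.1% ± 0.367 and Atp5g3-201 78.2% ± 1.74. All counts of Cox4i2 fell on Cox4i2-201. In 8 genes the leading transcript held under 50% in both libraries. Beside Ndufa10 and Ndufaf8, given below, they were Cox6b2 with 29.0%, Cox18 with 33.9% ± 1.18, Cox16 with 38.7% ± 1.62, Ndufab1 with 46.6% ± 0.0114, Ndufaf4 with 49.5% ± 0.00733 and Ndufc1 with 49.3% ± 0.158.

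In 7 of the 70 genes (10%) the leading transcript was not annotated as protein-coding, close to the 8.63% of all protein-coding genes filtered in the same way, and by expected counts the number was 4. Ndufa5-204, a processed transcript of 453 nt, held 95.2% ± 0.893 of Ndufa5, an outer subunit of the peripheral arm of complex I. Atp5j-208, a retained intron transcript of 526 nt, held 75.7% ± 0.179 of Atp5j, and Atp5f1-203, annotated for nonsense-mediated decay, held 71.7% ± 2.14 of the stalk subunit Atp5f1. The others were Cox5b-205, Ndufb4-202, Ndufa10-204 and Ndufaf8-203, with 61.5% ± 2.94, 64.1% ± 11.8, 30.5% ± 6.01 and 42.6% ± 4.22. The part of TPM left in coding transcripts ran from 4.39% ± 0.258 in Ndufa5 through 22.8% ± 0.0591 in Atp5j to 57.4% ± 4.22 in Ndufaf8, and by expected counts from 5.76% in Ndufa5 to 71.04% in Ndufaf8. In Ndufb4 the coding part differed between the libraries, at 44.3% and 27.5%, as the plot of coding and other transcripts shows. The 4 genes by expected counts were Ndufa5, Atp5j, Atp5f1 and Ndufaf4, of which Ndufaf4 is not among the 7. The processed transcript Ndufaf4-202 held 71.0% ± 1.55 of the counts of Ndufaf4, and coding transcripts held 28.9%.

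**Figure D4:**
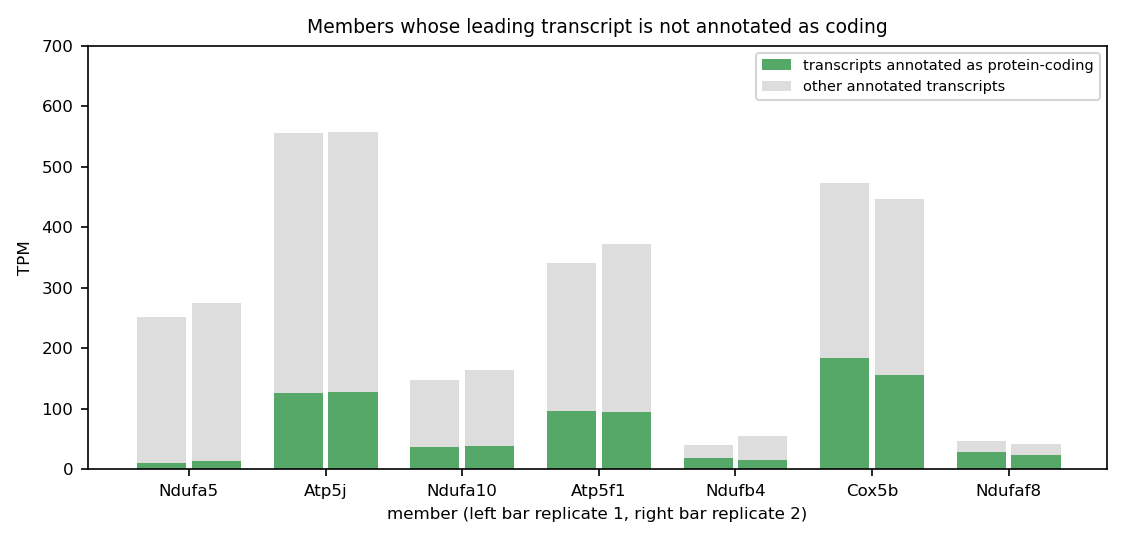
TPM of the 7 genes whose leading transcript is not annotated as protein-coding, divided into coding transcripts (green) and all others (grey), stacked from 0, with replicate 1 as the left and replicate 2 as the right bar. Ndufa5 keeps the smallest coding part, 4.39% of its TPM.

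The 13 subunits made from the mitochondrial genome offered a comparison within each complex. Their median was 1.71-fold above that of the nuclear subunits in complex I (7 against 36 genes), 4.67-fold in complex III (1 against 9), 2.46-fold in complex IV (3 against 11) and 11.1-fold in complex V (2 against 16). The log2 ratio of nuclear over mitochondrial medians was -0.78 and -0.76 in complex I and -3.42 and -3.53 in complex V. In complex IV it was -1.39 and -1.21, but -1.69 by posterior mean TPM, so that fold depends on the estimate used. Single mitochondrial genes varied, with mt-Co1 at 1835 and 1285 TPM. In complex I, mt-Nd4l at 117 and 55.7 TPM lay below the nuclear median.

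Regulators and partners of the chain were read from lists. NRF1 and GABP (encoded by Gabpa with Gabpb1) bind promoters of many nuclear respiratory genes, and PGC-1 proteins raise their activity. Of 11 such regulators, 9 reached 1 TPM in both libraries. Nrf1 was highest at 37.5 and 44.1 TPM, with Gabpb1 at 25.4 and 29.4 TPM and Pprc1 at 18.01 and 21.6 TPM, whereas Ppargc1a was at 1.22 and 2.31 TPM. The orphan receptors Esrrb at 0.02 and 0.06 TPM and Esrrg at 0.05 and 0.06 TPM were the lowest. All 9 genes of mitochondrial DNA expression reached 1 TPM, led by Tfam, which packages that DNA, at 49.0 and 57.4 TPM. Another list of 7 genes held carriers of adenine nucleotides and phosphate and the outer membrane channels Vdac1, Vdac2 and Vdac3. Of these genes, 6 reached 1 TPM in both libraries. Slc25a5 was at 591 and 590.1 TPM, the muscle and heart form Slc25a4 at 111 and 115 TPM and the testis form Slc25a31 at 0.07 and 0.12 TPM. All 14 genes of the tricarboxylic acid cycle reached 1 TPM, with a median of 102 ± 9.72 TPM, below the medians of all respiratory complexes.

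Promoter letters were examined in RefSeq windows of GRCm38.p6 that run from 250 bases before to 50 bases after a start, which were matched by symbol for 82 of the 104 genes. The 10-letter NRF1 palindrome, spelled in capitals in the lines further on, stood in 7 of the 82 (8.54%), against 2.86% of protein-coding genes of at least 100 TPM and 1.07% of all genes of the table. With 1 base of it left free, searched on both strands, the shares were 23.2%, 15.8% and 5.19%, and for the letters GCATGCGC on either strand, which lie within the palindrome and were added later, they were 15.9%, 6.67% and 3.05%. The ETS and GABP letters CCGGAAG stood in 28.0%, against 25.5% of the genes of at least 100 TPM, and the YY1 letters AAGATGGCG in 10.98%, against 4.40%. TATAAA was in 9.76%, against 12.6%. The genes with the palindrome were Atp5g2, Atp5k, Cox6a1, Ndufa11, Ndufaf4, Ndufaf5 and Uqcrc1, so it occurred in genes at 38.8 TPM (Ndufa11) and at 686 TPM (Cox6a1) alike. The 30 bases around the match (in capitals) are shown for the 5 genes where they lie before the start, and around GCATGCGC for Cycs, to let their flanks be compared:
Atp5g2, chr15:102671070-102671099, minus strand: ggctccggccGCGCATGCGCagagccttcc
Atp5k, chr5:108434430-108434459, minus strand: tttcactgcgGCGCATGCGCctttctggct
Cox6a1, chr5:115349101-115349130, minus strand: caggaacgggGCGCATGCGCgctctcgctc
Ndufa11, chr17:56717692-56717721, plus strand: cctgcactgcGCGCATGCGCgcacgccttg
Ndufaf4, chr4:24897960-24897989, plus strand: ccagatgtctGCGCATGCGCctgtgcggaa
Cycs, chr6:50566611-50566640, minus strand: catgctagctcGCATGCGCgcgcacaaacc

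These matches are a description of the letters, and no binding was measured. The distance from the first base of the match to the start was 42 bases in Atp5g2, 50 in Atp5k, 60 in Ndufa11 and in Cycs, 113 in Ndufaf4 and 162 in Cox6a1. All these starts are the RefSeq starts of the windows. In GENCODE release M21 Atp5g2 begins at 102672352 on the minus strand, so the bases shown lie inside that gene. Atp5k begins at 108434448 on the minus strand, within the bases shown.

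Between the libraries these genes tended to be slightly lower in replicate 2. Of the 101 with a mean count of at least 10, 86 had a lower TMM-scaled count in replicate 2, against 50.5% of all 15997 genes so tested, and their median log2 ratio was -0.15, with quartiles of -0.25 and -0.04. The number that was lower depended on the scaling: it was 85 with DESeq2 size factors, 68 with total annotated counts, 101 with spike-in totals and 64 after the medians of length and GC bins were subtracted. At least 1.5-fold higher in replicate 2 were 0 of the 101, against 3.4% of all genes, and at least 1.5-fold lower was 1, against 4.71%. This was Ndufa4l2, at 80 and 48 counts, with a ratio of 0.5997 (exact 95% binomial interval 0.410 to 0.868). The interval covers counting error only and does not allow for the choice of the lowest of 101 ratios. There is 1 library on each side, so no test was possible.

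The lowest ratios among genes of at least 100 counts were those of Uqcr11 (7139 and 5030 counts, log2 ratio -0.51), Ndufa3 (2718 and 1950, -0.48), Ndufs7 (6558 and 4794, -0.45), Ndufa11 (-0.38) and Ndufs8 (-0.37). The highest were those of Sdhc (4013 and 4514 counts, 0.17), Ndufaf4 (2432 and 2698, 0.15), Cox20 (0.13), Ndufs1 (0.11) and Cox15 (0.10). By class the median ran from -0.18 in the supernumerary subunits of complex I to -0.03 in its assembly factors, leaving aside the restricted forms at -0.25 with 5 genes. The transcripts of these genes are short, with a median of 723 nt against 2322 nt over all genes tested. When the medians of 20 bins of length were subtracted from all ratios the median became -0.01, and with length and GC content together -0.02. Scaled by spike-in totals, which took 1.16% and 1.88% of all counts, the median was -0.79 and 94 genes were at least 1.5-fold apart. Across the 76 structural subunits the ratio had a Spearman rho of 0.34 with length and -0.58 with GC content, a description over genes that share both libraries. The summed level of heart marker genes, as given above, was higher in replicate 2, and its part in these ratios was not tested.

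**Figure D5:**
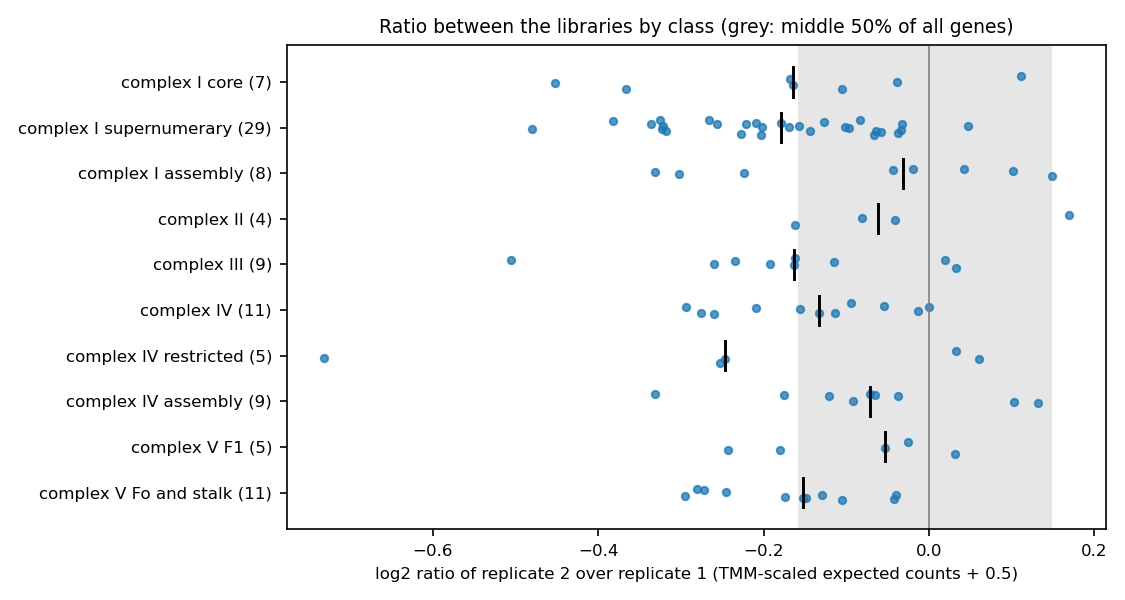
The log2 ratio of replicate 2 over replicate 1 for each gene with a mean count of at least 10 in classes of more than 1 such gene, with the class median as a black bar and the range between the quartiles of all genes tested in grey. Most points lie left of 0, and Ndufa4l2, among the restricted forms of complex IV, is the lowest at -0.73.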

How the data were processed

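The 2 libraries of fetal liver total RNA were deposited with a table of genes and one of transcripts for each. Per the deposited readme the assembly is mm10 with GENCODE release M4. Aligner and counting tool were points not given in the sources used here. Expected counts, per the file headers, are the authors' estimates of reads per gene, with reads that fit several genes divided among them. TPM was computed by the authors from these and effective lengths (shorter than the transcripts by 99 nt). The posterior SD of the count, deposited beside it, is used as a percent of the count.

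The members and all lists were chosen with earlier results of these data known. Symbols came from GENCODE release M21 by gene ID without version, and genes without a symbol held 0.154% and 0.163% of counts. Coa1 was not matched. The label-defined group was described by mean and SD, with no p-value. Ratios between replicates used expected counts, rounded, plus 0.5 with TMM factors of edgeR 4.0.16 (DESeq2 1.42.0 size factors as an alternative) in R 4.3.3, where the mean count was at least 10. Tested on data simulated for 16020 genes with counting error alone, folds of 0.5 and 2 came back as 0.494 and 2. The simulation held no effect of length or GC content, so it checks the computation and not the ratios of these libraries. Copies were found with blastn 2.17.0 (at least 95% identity over 150 nt and 60% of the copy, outside the gene itself). Other steps ran in Python 3.11.15 with matplotlib 3.10.9, scipy 1.17.1, pandas 2.3.3 and numpy 2.4.6. Named genes were both members of each isoform pair, the 4 highest and 2 lowest of each class, those below 1 TPM, the 5 highest and 5 lowest replicate ratios, the genes fixed for transcripts, and of each pathway list the 3 highest and 2 lowest, of which some are given only as counts. Other genes named were chosen after their values were seen. Alternatives covered the length used, the posterior mean, pseudocounts, thresholds, scaling and each replicate alone. Those on coding transcripts, on copies, on length and GC content and on the 8-letter motif were added after the data were seen. The values of 1 gene are not reported here, and it stays in all counts and medians.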

Additional observations from a re-analysis of the deposited data

How the results depend on the processing

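Over 38 results and 241 alternatives, 175 values moved by less than the SD between replicates or, for counts of genes, by less than 1.5 times, 64 moved by more and 2 turned direction. The 175 include alternatives whose outcome was fixed in advance. With 2 replicates, either one alone lies within the SD of their mean, so only counts of genes could move there. Leaving out genes with a posterior SD over 10% removed 0 genes. These alternatives say nothing on how stable the values are. Those that turned were complex II over complex I (-0.047 with copies added) and the F1 head over Fo (0.23 with coding transcripts only). The log2 ratio of complex V over complex I, 1.32 in the analysis given, was 1.25 with full transcript length, 1.18 with coding transcripts only and 1.43 with copies added. The share of TPM, 2.80%, was 2.76% by posterior mean TPM, 2.72% by full length, 1.80% by counts and 4.17% without globins. The spread of complex I, 0.81, was 0.75 with full length, 1.11 with coding transcripts and 0.75 with copies. That of complex IV, 0.48, was 0.78 with coding transcripts and 0.59 with copies. The count lower in replicate 2, 86, was 64 to 101 over other scalings. The nuclear over mitochondrial log2 ratio of complex I, -0.77, was -0.69 with full length. That of complex IV, -1.30, was -1.69 by posterior mean TPM and -1.44 with full length. That of complex V, -3.47, was -3.38 by posterior mean TPM and -3.26 with full length. The median ratio between the libraries, -0.15, was -0.79 under spike-in totals, -0.012 after length bins and -0.024 after length and GC bins. The count of genes at least 1.5-fold apart, 1, was 0 at a fold of 2 or a mean count of at least 100, 2 without a filter and 94 under spike-in totals. Leading transcripts not annotated as coding numbered 7 by TPM and 4 by counts. No paired analysis was possible because the labels define a single group.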

Other observations

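Further components of the ATP synthase carry symbols outside the rule, Usmg5 and Atpif1, and were looked up after the levels of the others were seen. Usmg5, a small membrane subunit that holds the dimer of the enzyme together, was at 914 and 1000.1 TPM (957 ± 60.8, SD, n = 2). Atpif1, the inhibitor that binds the F1 head when the proton gradient falls and that is known for its role in heme synthesis of red cells, was at 1416 and 1397 TPM (1407 ± 13.4). Among the 104 genes only Atp5b stood higher than both.

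Mdh2, the malate dehydrogenase of the tricarboxylic acid cycle, was the highest gene of its list at 374.20 and 374.14 TPM, followed by citrate synthase (Cs) at 134 and 153 TPM. The voltage-dependent channels of the outer membrane were at 207 ± 13.5 TPM for Vdac3, 161 ± 10.1 for Vdac2 and 147 ± 13.6 for Vdac1. Hccs, which attaches heme to cytochrome c, was at 15 and 17.8 TPM. The supercomplex factor Higd2a was at 106 and 104 TPM and its relative Higd1a at 33.1 and 31.7 TPM.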
